A study of Mus musculus with 13 samples.

Results

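Ventral-type CA1 pyramidal neurons were studied in single-nucleus RNA libraries of the whole mouse hippocampus. A nucleus was taken as CA1 when at least 2 of Fibcd1, Gm2115, Gm10754 and Mpped1 were detected, with a sum of 4 or more unique molecular identifiers (UMIs, each standing for 1 captured RNA molecule), and when Gad1 and Gad2 together gave fewer than 2 UMIs. It was ventral-type when Pde11a, Cpne7 and Dcn together had more UMIs than Spink8, Wfs1 and Stac, and dorsal-type in the opposite case. Ties were left out of both. Barcodes had to hold 500 or more genes and at most 5% mitochondrial UMIs. Of 105427 retained barcodes, 7585 (7.19%) were ventral-type CA1 nuclei, 2391 were dorsal-type and 1052 were ties, out of 11028 CA1 nuclei.

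The nuclei came from 13 libraries of frozen hippocampus of female hybrid mice, with the strain written C3HB6F1 in the sample labels and C3B6F1 in the series text. Young mice were 5 months old and ate ad libitum (AL_young, n = 3). Old mice were 24 months old and either ate ad libitum (AL_old, n = 3, numbered 1, 2 and 4), had been on dietary restriction since the age of 20 months (acute restriction, aDR_old, n = 3), or since 5 months (long-term restriction, DR_old, n = 4). No mouse carried a stated transgene or mutation. Each sample was taken as 1 mouse, which the labels do not spell out, so the p-values measure the spread between these samples. The comparisons were ageing (AL_old minus AL_young), each restriction against AL_old, and long-term minus acute restriction.

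CA1 is the output field of the hippocampal trisynaptic circuit, and its pyramidal neurons change gradually along the long axis of the hippocampus. The dorsal pole is known for spatial memory. The ventral pole projects to the amygdala, hypothalamus and prefrontal cortex and is known for roles in anxiety, stress and social behaviour. Among the transcripts that placed nuclei here, Pde11a encodes a phosphodiesterase that breaks down cAMP and cGMP and whose expression in brain is concentrated in ventral CA1 and subiculum. Cpne7 encodes a calcium-dependent membrane-binding protein. Dcn encodes decorin, a secreted proteoglycan that fibroblasts also make.

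The ventral-type sums held 1491028 to 16781048 UMIs per mouse, and the dorsal-type sums 332995 to 4390794. Young mouse 2 had the fewest UMIs per ventral-type nucleus (median 6595) and stood apart on the first principal component of the ventral sums, and old ad libitum mouse 1 had the most (22755). The 4 libraries numbered 1 deviated from their groups together, and acute restriction mouse 2 had few nuclei with Dcn. Several results below are also given without one or more of these libraries. Scrublet scored barcodes for resemblance to mixtures of nuclei. The highest scores of each library were marked at a rate set beforehand, 0.8% per 1000 retained barcodes. This rate fixed the marked share of all retained barcodes at 7.01%, and 10.7% of the ventral-type nuclei were marked. Marked barcodes were kept, and leaving them out was an alternative. Of the barcode sequences, 1351 occurred in 2 or more libraries among retained barcodes, and 5 did so among ventral-type nuclei.

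Most ventral-type nuclei were placed by Pde11a and Cpne7 together. Of the 7585 nuclei, 3450 (45.5%) had UMIs of Pde11a and Cpne7 without Dcn, 1852 (24.4%) had all 3 transcripts, and 1583 (20.9%) had Cpne7 alone. Dcn alone placed 33 nuclei (0.435%). The nuclei with all 3 transcripts had a median excess of ventral over dorsal marker UMIs of 16, whereas those with Cpne7 alone had 3. Near the threshold, 766 nuclei had an excess of 1 UMI and 665 an excess of 2, beside 1052 ties and, on the dorsal side, 750 nuclei at -1 and 547 at -2. No UMI of the dorsal transcripts was found in 3906 members (51.5%). These counts describe the rule, and no test was made on them.

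The transcripts of the rule were unevenly spread within the ventral-type nuclei. Cpne7 was detected in 95.6% of them, Pde11a in 73.9% and Dcn in 2273 of the 7585 nuclei. With each nucleus thinned to 3000 UMIs, which left out 6 shallower nuclei, the shares were 68.3%, 49.7% and 14.3% in that order. In dorsal-type CA1 nuclei, where the rule itself limits these transcripts, the shares were 53.1%, 18.8% and 1.38% before thinning. After thinning they were 20.7%, 6.07% and 0.209%, so Cpne7 in particular was not confined to ventral-type nuclei. In 13726 nuclei selected by Prox1, a marker of dentate granule neurons, the shares before thinning were 7.93%, 2.41% and 2.96%, a reference for free RNA in the droplets. The median depth over libraries was 11498 UMIs for ventral-type nuclei and 7957 for the Prox1-selected nuclei, and the thinned shares in the latter were 3.17%, 0.846% and 1.22%.

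Measured over all 13 mice, the mean level of Pde11a (chromosome 2, 75989141 to 76338774 in mm10) was 8.23 ± 0.45 log2 CPM (the log of the UMI count scaled to the total of the sum; mean ± SD) in ventral-type sums, 4.67 ± 0.73 in dorsal-type sums and 4.83 in all other nuclei. Cpne7 (chromosome 8, 123117374 to 123135182) had 8.72 ± 0.27, 6.25 ± 0.67 and 5.81. Dcn (chromosome 10, 97479609 to 97518143) had 5.89 ± 1.22, 1.04 ± 0.84 and 3.33. The spread of Dcn between mice was thus the widest of the 3. Of the general CA1 transcripts, Fibcd1 (chromosome 2, 31813290 to 31846005), a receptor for acetylated sugars, was at 5.55 ± 0.46 in ventral-type and 4.93 ± 0.61 in dorsal-type sums against 1.86 elsewhere, and the long noncoding RNA Gm10754 (chromosome 10, 97681414 to 97967090) at 8.56 ± 0.33 and 8.32 ± 0.30 against 4.47 elsewhere. Gm2115 was the exception among them, with 7.44 ± 0.26 in ventral-type and 8.28 ± 0.22 in dorsal-type sums. All of these transcripts chose the nuclei, and the other nuclei were those that failed the CA1 rule. The values therefore describe the rule and are no test.

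The label was set against transcripts of the long axis that the rule had not used. Nr2f2, a nuclear receptor that marks ventral and caudal territories, was at 4.96 ± 0.66 log2 CPM in ventral-type and 2.38 ± 0.89 in dorsal-type sums. Within a mouse the difference was 1.08 at the lowest, 2.90 at the median and 3.54 at the highest, so ventral-type sums were higher in 13 of 13 mice. Htr2c, a serotonin receptor, differed by 1.15 ± 0.59 (12 of 13 mice), the peptide gene Grp by 0.94 ± 1.08 (9 of 13) and the transcription factor gene Etv1 by 0.23 ± 0.59 (7 of 13). Of the dorsal transcripts, Lct differed by -1.87 ± 0.72, Lefty1 by -1.03 ± 0.67 and Gpr161 by -0.41 ± 0.16, each lower in ventral-type sums in 13 of 13 mice (12 for Lct with TMM). Nr2f1, listed as dorsal, went the other way, at 0.77 ± 0.39 and higher in 13 of 13. Thus 7 of 8 listed genes had a mean difference in the direction of the label. Lct is counted among them, although it is also 1 of the 5 granule neuron markers used below. The comparison shares its nuclei with the rule, so it describes the members and is no test.

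Marker lists of other cell types differed in how they compared with all other nuclei. The summed level of 5 granule neuron markers was 44.4 to 106 CPM in ventral-type sums against 586 to 976 CPM in all other nuclei, and that of 6 inhibitory markers 110 to 182 against 1135 to 1909. The rule kept Gad1 and Gad2 together below 2 UMIs, and the other nuclei were those that failed it. The inhibitory contrast was thus set at least in part by the choice of nuclei. For 6 fibroblast markers, which matter here because fibroblasts make Dcn, the summed level was 0.813 to 8.05 CPM in ventral-type sums (median 4.17). It was 0 to 9.11 CPM in dorsal-type sums (median 1.43) and 3.11 to 29.3 CPM in other nuclei (median 9.21). These ranges overlapped, and the median was higher in ventral-type than in dorsal-type sums. Astrocyte markers were at 109 to 364 CPM, with the highest value in old ad libitum mouse 1, against 330 to 1926 CPM, and microglial markers at 31.0 to 185 CPM, with the highest in young mouse 2, against 51.5 to 224 CPM, so both ranges overlapped those of other nuclei. Markers of deep cortical layers were not low, at 411 to 1023 CPM in ventral-type sums (median 786), 386 to 596 CPM in dorsal-type sums and 662 to 1046 CPM in other nuclei (median 909). Markers of CA3 and mossy neurons had medians of 14.6 and 13.7 CPM in ventral-type sums and other nuclei. The 5 subicular markers summed to 3.58 to 78.5 CPM in ventral-type sums (median 45.6) and 10.3 to 154 CPM in dorsal-type sums (median 104). In other nuclei they summed to 6.57 to 37.7 CPM (median 21.3), so the median was highest in dorsal-type sums. Among these markers Slc17a6, the vesicular glutamate transporter of subiculum and thalamus, was lower in ventral-type than in dorsal-type sums by 1.86 ± 0.75 on the log2 scale in 13 of 13 mice. The part of subicular transcripts in the differences between the types was not tested. No listed marker was at 0 in every library.

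Ventral-type sums were next set against the dorsal-type sums of the same mouse. Levels were scaled to total UMIs, and 1018 of 13942 genes (7.3%) were higher in ventral-type sums in 13 of 13 mice while 517 (3.71%) were lower. With TMM scaling the counts were 768 and 660, so the balance between higher and lower depended on the scaling. The median difference over all genes was 0.07 with total scaling and 0.06 with TMM. Since the rule chose members on this contrast, the differences are descriptions without tests, and genes were named by size of difference among those at a mean of 5 log2 CPM or more.

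Genes of axon guidance lay on both sides of the comparison. Slit2 (chromosome 5, 47983138 to 48307733), a secreted repellent that signals through Robo receptors, was at 8.29 ± 0.52 in ventral-type and 5.47 ± 0.87 in dorsal-type sums. Its difference within a mouse ran from 2.05 through a median of 2.54 to 3.99. The netrin receptor gene Unc5d, whose mean level of 8.54 in ventral-type sums was below the 9.31 of all other nuclei, differed by 2.16 ± 0.83, the ephrin ligand gene Efna5 by 1.79 ± 0.73 and the netrin-related Ntng1 by 1.24 ± 0.67. Ephrin receptor genes went the other way, with Epha10 at -1.58 ± 0.26, Epha7 at -1.16 ± 0.36, Epha6 at -0.88 ± 0.24 and Epha5 at -0.57 ± 0.17. Of 24 measured genes of the axon guidance list, 5 were higher and 3 lower in 13 of 13 mice, and the list's median difference was 0.04 (4, 3 and -0.02 with TMM). Over all genes, 7.3% were higher and 3.71% lower in 13 of 13 mice.

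Adhesion molecules were split as well. The protocadherin genes Pcdh15 and Pcdh7 were higher in ventral-type sums by 2.60 ± 0.60 and 1.59 ± 0.47, the immunoglobulin family genes Kirrel3 and Sdk1 by 1.96 ± 0.65 and 1.97 ± 0.66, and the integrin-related Itgbl1 by 2.62 ± 0.76. Kirrel3 had a mean level of 10.25 in ventral-type sums and 10.69 in all other nuclei. Of the genes named as higher in ventral-type than in dorsal-type sums by size of difference, Spock1, A830018L16Rik, Fstl5, Gm1604a, Mctp1, Sdk1, Ak5, Dpyd and Zfp804b also had a lower mean level in ventral-type sums than in all other nuclei, as had Grik4, Unc5d and Kirrel3. Cdh13, Cdh9 and Cadm1, from the synaptic adhesion list, differed by 1.48 ± 0.75, 1.42 ± 0.61 and 1.28 ± 0.19. Nrxn3, a presynaptic organiser, differed by -0.92 ± 0.22, Cadm2 by -0.89 ± 0.26 and Cdh10 by -0.72 ± 0.23. In that list 7 of 27 genes were higher and 4 lower in 13 of 13 mice, which became 5 and 5 with TMM. The shares over all genes were 7.3% and 3.71% with total scaling. Bcan, which encodes the perineuronal proteoglycan brevican, was lower by 1.65 ± 0.47.

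**Figure D1:**
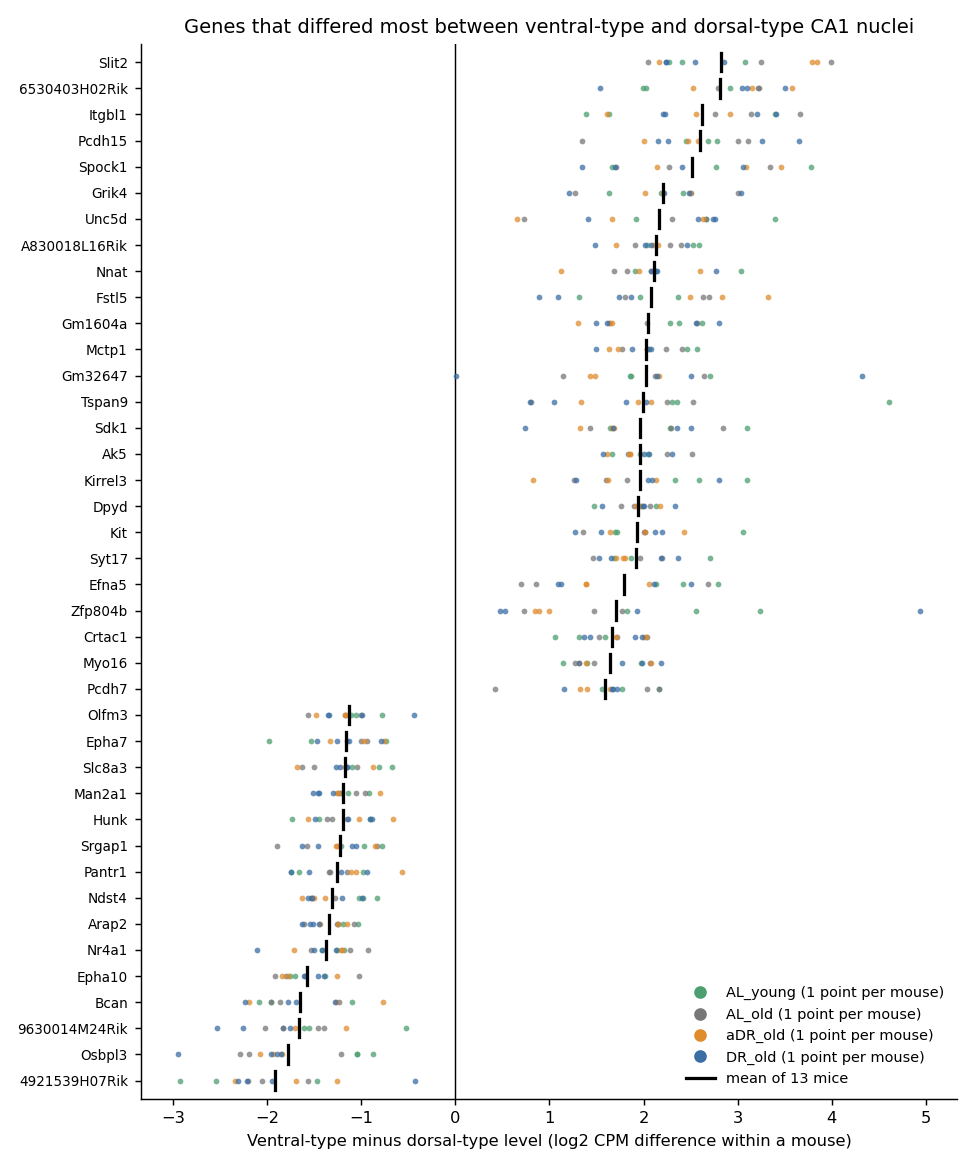
Difference in log2 CPM between ventral-type and dorsal-type sums of the same mouse (horizontal axis) for the 40 genes named by size of difference, with 1 point per mouse and a bar at the mean of 13 mice. Slit2, at the top, lies between 2.05 and 3.99, and the points of 4921539H07Rik lie between -2.93 and -0.43.

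Glutamate receptor genes differed in kind. Grik4 (chromosome 9, 42518135 to 42944493), a high-affinity kainate receptor subunit known from CA3, was at 7.72 ± 0.32 in ventral-type and 5.52 ± 0.58 in dorsal-type sums, with a difference of 1.21 at the lowest, 2.22 at the median and 3.03 at the highest. Its mean level in all other nuclei was higher still, at 8.37. Grik3 differed by 1.35 ± 0.59, and the metabotropic receptor gene Grm3 by 0.86 ± 0.42. In all, 6 of 12 kainate and metabotropic receptor genes were higher in 13 of 13 mice and 0 lower (1 lower with TMM), although Grik1 had a mean difference of -1.75 ± 1.14 and was higher in 1 mouse. Among AMPA and NMDA receptor subunits, Gria4 (1.55 ± 0.39) and Grin3a (1.54 ± 0.54) were higher in 13 of 13 mice. The more widely used subunits Grin2a (-0.49 ± 0.22) and Gria2 (-0.19 ± 0.07) were lower in 13 of 13, and 5 of 9 measured members of that list were lower. Beside the counts of both lists stand 7.3% higher and 3.71% lower over all genes.

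Of 16 measured monoamine and stress receptor genes, 2 were higher and 2 lower in ventral-type sums of 13 of 13 mice, with a median of -0.06. Over all genes 7.3% were higher and 3.71% lower, and in a list of this size 2 is near such shares. Adra1a, the alpha-1A adrenergic receptor, was at 5.39 ± 0.51 log2 CPM in ventral-type and 2.15 ± 0.84 in dorsal-type sums, a difference of 3.24 ± 0.84 with a range from 1.65 to 4.91. Htr7, a serotonin receptor coupled to cAMP, differed by 2.08 ± 1.11. Chrm3, a muscarinic receptor, was lower in ventral-type sums by 1.05 ± 0.33, and Nr3c2, the mineralocorticoid receptor, by 0.60 ± 0.11. The glucocorticoid receptor gene Nr3c1 did not have the same sign in every mouse (-0.10 ± 0.24, higher in 3 of 13). Kit, the receptor for stem cell factor, differed by 1.93 ± 0.48, and Nrg1, a ligand of ErbB4, by 1.47 ± 0.39, while Ntrk2, the receptor for BDNF, was lower by 0.73 ± 0.29.

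Of 32 ion channel genes tied to excitability, 10 were higher and 3 lower in ventral-type sums of 13 of 13 mice, and 8 and 6 with TMM. Over all genes 7.3% were higher and 3.71% lower with total scaling, and the counts of the other lists below stand beside the same shares. The calcium-activated potassium channel gene Kcnn3 differed by 1.38 ± 0.38, the A-type channel gene Kcnd3 by 1.33 ± 0.41 and the L-type calcium channel gene Cacna1c by 1.09 ± 0.22. In the opposite direction, the ERG-type channel gene Kcnh7 differed by -1.10 ± 0.18, Kcnip4 by -0.77 ± 0.13 and its partner Kcnd2 by -0.57 ± 0.18. For GABA-A receptors, the alpha-3 and alpha-2 subunit genes Gabra3 (0.89 ± 0.39) and Gabra2 (0.59 ± 0.14) were higher in 13 of 13 mice, and the list's median difference over 12 members was -0.10. In that list 1 member was lower in 13 of 13 mice, and with TMM 2 were higher and 3 lower. Apart from Pde11a, the phosphodiesterase genes Pde7b (1.05 ± 0.68) and Pde9a (0.90 ± 0.90) were higher and the cAMP-specific Pde4d (-0.66 ± 0.30) and Pde4a (-0.41 ± 0.17) lower, with 2 of 15 members in each direction, or 2 higher and 3 lower with TMM.

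Of 14 measured immediate early genes, which neuronal activity induces, 6 were lower in ventral-type sums (5 with TMM) and 1 higher in 13 of 13 mice, with a list median of -0.74 beside 0.07 for all genes. Over all genes 3.71% were lower and 7.3% higher in 13 of 13 mice. Nr4a1 was at 4.77 ± 0.50 in ventral-type and 6.14 ± 0.40 in dorsal-type sums, and its difference ran from -2.12 to -0.93. Arc, which acts in AMPA receptor trafficking, differed by -1.39 ± 0.48, Egr4 by -1.51 ± 0.31 and Homer1 by -0.70 ± 0.18. Jun was the member higher in 13 of 13 mice, by 1.03 ± 0.49. Of nuclear-encoded subunits of oxidative phosphorylation, 0 of 30 had the same sign in every mouse, as had 0 of 11 heat shock chaperones, with list medians of 0.02 and 0.00. For a list as short as the chaperones, 0 is near the shares over all genes.

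Further genes at the top of the order included the paternally expressed Nnat (2.11 ± 0.49), which lies inside the oppositely oriented Blcap, the noncoding 6530403H02Rik (2.82 ± 0.62), the pyrimidine-degrading enzyme gene Dpyd (1.94 ± 0.24) and the adenylate kinase gene Ak5 (1.96 ± 0.28). Among the 25 named genes higher in ventral-type sums, the last 2 varied least between mice. The widest ranges belonged to Gm32647 (0.00 to 4.33) and Zfp804b (0.48 to 4.94). Long-term restriction mouse 4 had 26 dorsal-type nuclei, the fewest of the 13 mice. At the bottom were 4921539H07Rik (-1.92 ± 0.64), the oxysterol-binding protein gene Osbpl3 (-1.79 ± 0.59) and the heparan sulphate enzyme gene Ndst4 (-1.31 ± 0.27). Calb1, the calcium buffer of superficial CA1 neurons, was higher in ventral-type sums in 13 of 13 mice (0.78 ± 0.34) with total scaling and in 12 with TMM.

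Levels within the members were described along the strength of the markers. CA1 nuclei were binned by the excess of ventral or dorsal marker UMIs, from 3 or more on the dorsal side (1094 nuclei), through 1 to 2 on the dorsal side (1297) and 1 to 2 on the ventral side (1431), to 3 to 7 (2438), 8 to 15 (2264) and 16 or more (1452). The bins use the UMIs of the rule, and the genes shown were chosen after their values were seen, so the values are descriptions. Means were taken over the mice with at least 20 nuclei in a bin, which were 11, 12, 13, 13, 13 and 12 mice in that order. Nr2f2 had means of 2.70, 6.31, 15.6, 26.8, 38.2 and 51.0 CPM across these bins, with an SD over mice of 1.75 in the first and 12.9 in the last. Slit2 had 50.0, 45.6, 141, 264, 399 and 487 CPM, and Nnat had 46.2, 61.0, 115, 211, 309 and 403 CPM. Each thus took a higher mean in every further bin on the ventral side.

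Kcnh7 and Epha7 ran in the opposite direction, from 2863 ± 232 and 795 ± 153 CPM in the first bin to 791 ± 210 and 180 ± 54.7 CPM in the last. Etv1 did not follow a line. It had 233 ± 76.4 CPM at the dorsal end, 135 ± 38.8 and 137 ± 37.2 CPM in the middle bins and 298 ± 74.1 CPM at the ventral end. Kit levelled off, with 89.8 ± 17.7 CPM at an excess of 8 to 15 and 77.6 ± 15.5 at 16 or more. Slc17a6 had 24.1 ± 12.8 CPM in the first bin, 9.0 ± 5.63 in the next and 2.40 ± 1.89 in the last. The median depth per nucleus also differed between bins, at 12673.5 UMIs at the dorsal end, 10388 in the first ventral bin and 13305 in the last, and its part in the graded levels was not tested.

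**Figure D2:**
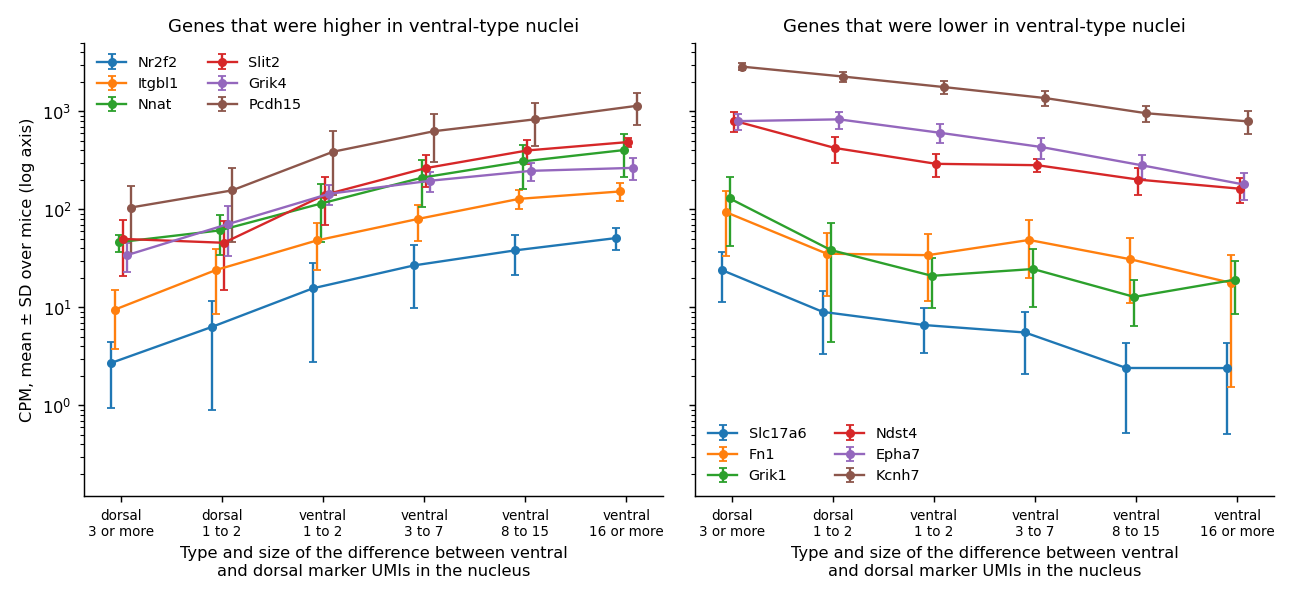
Mean CPM with SD over mice (log axis) of 12 genes in CA1 nuclei binned by type and by the excess of marker UMIs (horizontal axis, from the strongest dorsal to the strongest ventral bin). Each bin rests on 11 to 13 mice. Nr2f2 goes from 2.70 to 51.0 CPM in the left panel, and Kcnh7 from 2863 to 791 CPM in the right panel.

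Dcn marked a part of the members. It was detected in 2273 ventral-type nuclei and not in 5312. The share with Dcn was 52.3%, 32.5% and 19.8% in the young mice, 21%, 29.8% and 29.6% in old ad libitum mice 1, 2 and 4, 23.1%, 3.90% and 38.2% in acutely restricted mice, and 33.2%, 39.2%, 37.3% and 42.2% in long-term restricted mice. The groups overlapped except that each long-term restriction mouse had a higher share than each old ad libitum mouse. Because Dcn was part of the rule, these shares are descriptions without a test. Acute restriction mouse 2 was far below all others.

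Nuclei with Dcn carried more of the ventral transcripts than nuclei without it in the same mouse. The difference was 1.12 ± 0.45 for Nr2f2 and 0.86 ± 0.36 for Slit2, each positive in 13 of 13 mice, and 0.74 ± 0.33 for Pde11a. Over 4662 genes at 5 log2 CPM or more, 352 (7.55%) were higher and 246 (5.28%) lower with Dcn in 13 of 13 mice. The highest were Rgs6, a regulator of G protein signalling (1.77 ± 0.61), Pcdh7 (1.53 ± 0.32), Prr16 (1.49 ± 0.37), Kirrel3 (1.48 ± 0.31) and Nnat (1.45 ± 0.42). Adra1a differed by 1.3 ± 0.40. These are descriptions, because Dcn was part of the rule.

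Genes that were lower in nuclei with Dcn included 4921539H07Rik (-2.57 ± 0.71), Luzp2 (-1.72 ± 0.32), Chrm3 (-1.56 ± 0.42), the atypical cadherin gene Fat3 (-1.29 ± 0.42) and Nrxn3 (-1.28 ± 0.29). The dorsal marker Stac was lower by 1.35 ± 0.67. The CA1 transcripts of the rule differed among themselves. Fibcd1 (-0.01 ± 0.40) was nearly level, and Mpped1 (0.18 ± 0.13) was slightly higher with Dcn, in 11 of 13 mice. Gm2115 (-0.89 ± 0.40) and Gm10754 (-0.31 ± 0.26) were lower on average, and were higher with Dcn in 0 and 2 of 13 mice. Lum, a proteoglycan gene of fibroblasts, had a mean difference of 0.29 ± 0.77 and was higher in 8 of 13 mice. Nuclei with Dcn had the higher median depth in 10 of 13 mice, for example 12478 against 11041 UMIs in old ad libitum mouse 2, and the part of depth in these differences was not tested.

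The balance between ventral-type and dorsal-type nuclei did not differ between conditions by more than the spread between mice. Ventral-type nuclei made up 65.7%, 76.3% and 49.0% of the ventral-type and dorsal-type nuclei in the young mice, and 62.7%, 80.7% and 81.3% in the old ad libitum mice. Under acute restriction they made up 82.9%, 67.2% and 82.7%, and under long-term restriction 72.3%, 84.0%, 88.4% and 93.1%. The group means were 63.7% ± 13.8, 74.9% ± 10.6, 77.6% ± 9.02 and 84.4% ± 8.93 (SD, n = 3, 3, 3 and 4), and neighbouring groups overlapped. The Wilson 95% interval of a single mouse ran at its widest from 57.3% to 67.8% (old ad libitum mouse 1) and covers counting error only.

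In log2 odds, ageing differed by 0.79 (two-sided exact permutation p = 0.3, adjusted p = 0.419 over 4 comparisons). Long-term restriction differed from ad libitum feeding by 0.96 (exact permutation p = 0.229, adjusted p = 0.419) and acute restriction by 0.21 (exact permutation p = 0.5, adjusted p = 0.5), which was -0.24 without old ad libitum mouse 1. Long-term minus acute restriction was 0.75 (exact permutation p = 0.314, adjusted p = 0.419). The smallest p that these designs allow is 0.1 for 3 against 3 mice and 0.029 for 3 against 4. How much tissue of each pole entered each library is not given in the sources used here, so dissection and cell number cannot be told apart.

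Ventral-type nuclei held a median of 11477, 6595 and 9646 UMIs in the young mice and 22755, 11613 and 11498 in the old ad libitum mice, so those groups did not overlap. The difference in log2 median depth was 0.69 (exact permutation p = 0.1, adjusted p = 0.2, with 0.1 the smallest p possible). It ranged from 0.36 to 0.86 with 1 mouse left out, and the nearest values of the groups were 11477 and 11498. Medians were 11562, 10517 and 9588 in acutely restricted mice, and 12407, 11759, 13838 and 11403 in long-term restricted mice. Against old ad libitum mice the differences were -0.46 (exact permutation p = 0.2, adjusted p = 0.267) for acute and -0.23 (exact permutation p = 0.657, adjusted p = 0.657) for long-term restriction, and the latter was 0.09 without old ad libitum mouse 1. Long-term minus acute restriction was 0.23 (exact permutation p = 0.0857, adjusted p = 0.2).

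**Figure D3:**
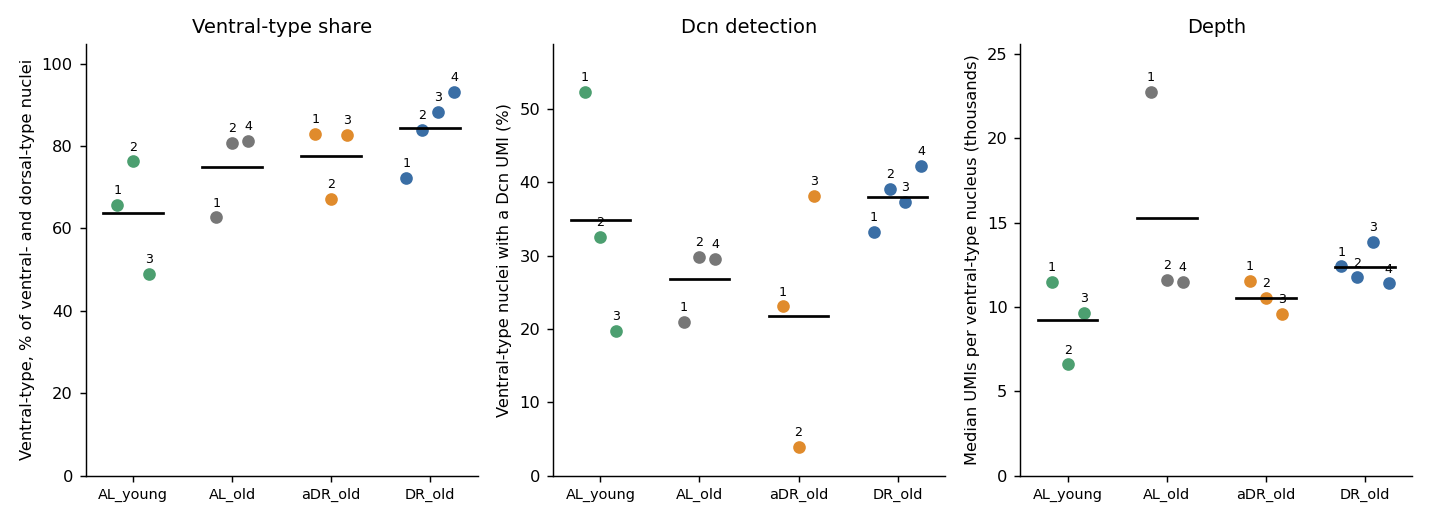
Share of ventral-type among ventral-type and dorsal-type nuclei, share of ventral-type nuclei with a Dcn UMI, and median UMIs per ventral-type nucleus, by group, with 1 numbered point per mouse and a bar at the group mean. Acute restriction mouse 2 lies at 3.90% in the middle panel, and old ad libitum mouse 1 at 22755 UMIs in the right panel.

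Gene levels in ventral-type nuclei were next compared between conditions. UMIs were summed per mouse, and edgeR's quasi-likelihood test with Benjamini-Hochberg adjustment was fitted over 14608 genes with all 13 mice. For ageing, 0 genes (0%) passed an adjusted p of 0.05, while 2274 (15.6%) had an unadjusted p below 0.05, 1114 of them (7.63%) with a higher level in old mice and 1160 (7.94%) with a lower one. DESeq2 called 211 of 5889 genes with an adjusted p (3.58%), 134 higher and 77 lower. With a term for the libraries numbered 1, edgeR called 145 genes (0.993%), 29 higher (0.199%) and 116 lower (0.794%), and without those 4 libraries it called 574 of 14559 (3.94%), 29 higher and 545 lower, so the balance of directions differed between these fits. Of the 145, 57 were also called by DESeq2 (39.3% of the 145 and 27.0% of the 211). The values below are of the genes of smallest p, and none of them passed the main edgeR test, which had no term for number 1.

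The gene of smallest p was the noncoding 1700030F04Rik, at 6.26, 6.64 and 6.13 log2 CPM in young and 5.29, 5.27 and 4.99 in old ad libitum mice (-1.16 ± 0.19 SE, edgeR adjusted p = 0.194). Under acute restriction it was at 4.94, 5.08 and 5.55, and under long-term restriction at 5.50, 5.64, 5.05 and 5.54. Old ad libitum mice were below young mice without overlap. The restricted old mice also lay below each young mouse.

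Cabp1, a neuronal calcium-binding protein that regulates calcium channels and IP3 receptors, was at 5.85, 5.76 and 5.83 in young and 6.50, 6.56 and 6.35 in old ad libitum mice (0.66 ± 0.12, edgeR adjusted p = 0.194). Its levels were 6.67, 6.41 and 6.33 under acute and 6.23, 6.44, 6.51 and 6.27 under long-term restriction. All old mice thus exceeded all young mice for this gene. Timmdc1, an assembly factor of respiratory complex I, was at 5.71, 5.75 and 5.89 in young and 5.09, 5.11 and 5.07 in old ad libitum mice (-0.70 ± 0.13, edgeR adjusted p = 0.194), and the restricted mice lay between 5.33 and 5.82, overlapping the young.

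Pygb, the brain glycogen phosphorylase, was at 5.97, 5.59 and 6.0 in young and 6.41, 6.55 and 6.41 in old ad libitum mice (0.58 ± 0.12), and Ndst1, a heparan sulphate enzyme, at 4.46, 4.65 and 4.6 against 4.99, 5.22 and 5.14 (0.57 ± 0.12). The noncoding Gm31698 was at 4.56, 4.43 and 4.08 against 5.09, 5.69 and 5.64 (1.14 ± 0.21). Rwdd1 (-0.65 ± 0.12), Saysd1 (-1.02 ± 0.19), 6430590A07Rik (-0.83 ± 0.15) and Gm48530 (2.40 ± 0.46, with as few as 1 UMI in young mouse 2) completed the 10 genes. All 10 had an edgeR adjusted p of 0.194 and groups without overlap, as had 1506 genes higher (10.3%) and 1294 lower (8.86%) over the whole table. With a term for number 1 their adjusted p ranged from 0.0292 for 1700030F04Rik to 0.0481 for Ndst1. Rwdd1, Ndst1, 1700030F04Rik and 6430590A07Rik overlap an annotated gene on the other strand, and the use of strand in counting is not given in the sources used here.

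**Figure D4:**
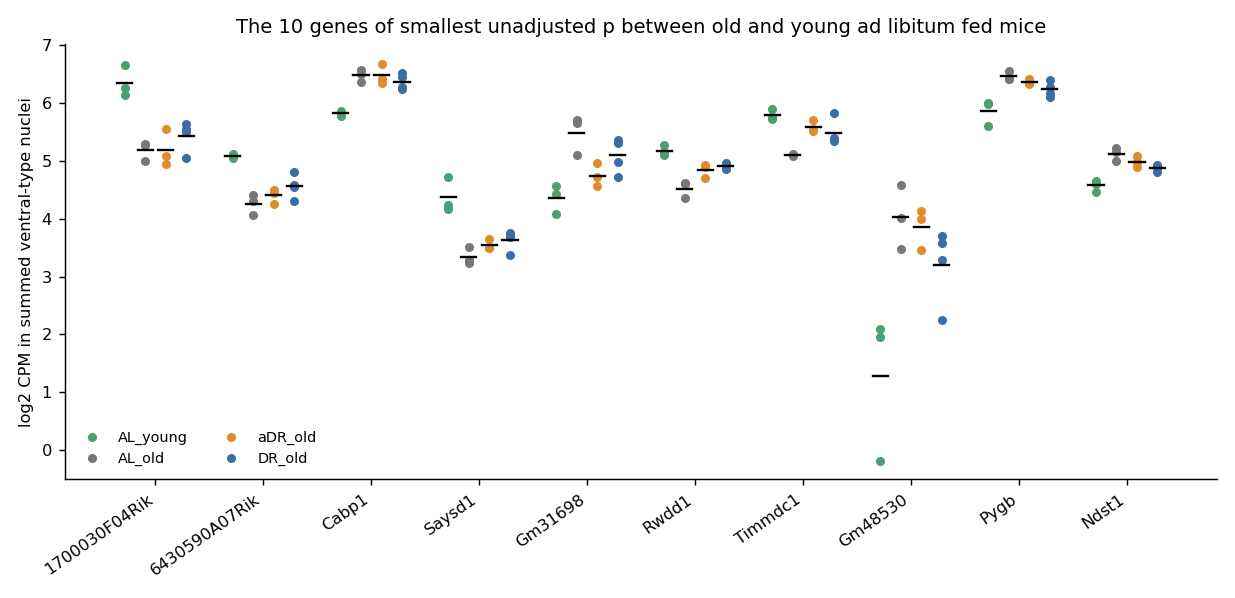
Level in log2 CPM of summed ventral-type nuclei for the 10 genes of smallest unadjusted p between old and young ad libitum mice, with 1 point per mouse, coloured by group, and a bar at the group mean. Cabp1 lies at 5.76 to 5.85 in young and 6.35 to 6.56 in old ad libitum mice, and Timmdc1 at 5.71 to 5.89 and 5.07 to 5.11.

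Several further genes were called for ageing with the term for number 1 and are named here after their values were seen. Slit1, a secreted guidance cue of the same family as Slit2, was at 7.10, 6.98 and 7.48 in young and 7.90, 8.04 and 7.93 in old ad libitum mice (0.75 ± 0.17, adjusted p = 0.194 in edgeR and 0.0481 with that term). Plch2, a phospholipase C, had 5.04, 5.07 and 5.21 against 5.56, 5.94 and 5.76 (0.66 ± 0.14, edgeR adjusted p = 0.194 and 0.0481). Grik4, the kainate receptor gene that was higher in ventral-type than in dorsal-type sums, had 7.32, 7.40 and 7.0 against 8.12, 8.10 and 7.67 (0.73 ± 0.18, edgeR adjusted p = 0.199 and 0.0481). Tmem126a, which encodes a mitochondrial membrane protein, was at 5.63, 6.31 and 6.01 against 5.19, 5.00 and 5.26 (-0.84 ± 0.17, edgeR adjusted p = 0.194 and 0.0292). Each had groups without overlap, as had 10.3% of all genes in the higher and 8.86% in the lower direction.

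Fixed gene lists were read by counts of members with an unadjusted p below 0.05, because 0 members of any list passed the main edgeR test, and these counts stand beside 7.63% higher and 7.94% lower over all genes. Of 32 ion channel genes, 11 had such a p with a higher level in old mice and 0 with a lower one, with a list median of 0.27 beside -0.03 for all genes. Kcnq3, a subunit of the M-current potassium channel, was at 9.59, 9.78 and 9.80 in young and 10.30, 10.36 and 10.50 in old ad libitum mice (0.66 ± 0.16, edgeR adjusted p = 0.194). Cacna1c (0.53 ± 0.14), Kcnma1 (0.46 ± 0.12) and Cacna1b (0.39 ± 0.10) also had groups without overlap, as had 10.3% of all genes in that direction. For insulin, FoxO and mTOR genes, 6 of 20 had such a p and a higher level (Igf1r 0.43 ± 0.12, Foxo3 0.49 ± 0.14), and 0 a lower one. Kainate and metabotropic receptors counted 3 of 12 and AMPA and NMDA receptor subunits 2 of 10, each with 0 lower.

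The neurotrophin and neuregulin list counted 3 of 9 higher and 0 lower, with Ntrk3 at 0.51 ± 0.13 and Ntrk2 at 0.58 ± 0.18. Among glucocorticoid-induced genes, 4 of 13 were higher and 1 lower at that p. Zbtb16 was at 7.32, 7.21 and 7.96 in young and 8.29, 8.25 and 8.14 in old ad libitum mice (0.69 ± 0.18, edgeR adjusted p = 0.199), and Ddit4 at 2.41, 2.52 and 1.96 against 1.61, 1.35 and 0.97 (-1.06 ± 0.39, edgeR adjusted p = 0.257). Monoamine and stress receptor genes counted 3 of 18 higher, phosphodiesterases 3 of 15 higher and axon guidance genes 6 of 25 higher, each with 0 lower. Synaptic adhesion genes counted 3 of 27 higher and 1 lower, the latter being Lrrtm1 (-0.59 ± 0.14), which is near the shares over all genes.

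Of 30 nuclear-encoded subunits of oxidative phosphorylation, 9 had an unadjusted p below 0.05 with a lower level in old mice and 0 with a higher one, with a list median of -0.45. Cox7c, a subunit of complex IV, was at 6.19, 6.32 and 5.80 in young and 5.50, 5.00 and 4.86 in old ad libitum mice (-0.98 ± 0.22, edgeR adjusted p = 0.194, and 0.037 with a term for number 1). Atp5g1, a subunit of ATP synthase, was at 5.26, 5.10 and 4.58 against 4.33, 3.95 and 4.07 (-0.91 ± 0.23, edgeR adjusted p = 0.199, and 0.0362 with that term). Heat shock chaperones counted 4 of 11 lower and 0 higher, with Hsp90ab1 at 7.38, 7.10 and 6.76 against 6.72, 6.06 and 6.15 (-0.78 ± 0.26, edgeR adjusted p = 0.235, and 0.0481 with that term). Immediate early genes counted 1 of 13 lower, near the share over all genes, and 0 higher, with a median of -0.25.

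These list values moved with gene length. Across 14597 genes the log2 fold change with age had a Spearman correlation of 0.454 with the genomic span of the gene, where genes are not independent, and in the other 3 comparisons it was between 0.00 and 0.05. The median span was 209 kb for the channel list and 7.16 kb for the oxidative phosphorylation list, beside 27.3 kb for all genes. With the length trend removed within each library, 6 of 32 channel genes were higher and 0 lower (median 0.16), and 4 of 30 oxidative phosphorylation genes were lower and 1 higher (median -0.13), beside 841 higher and 690 lower over all genes in that fit (median 0.03). Heat shock chaperones then counted 0 of 11 lower, AMPA and NMDA receptor subunits 0 of 10 higher, insulin, FoxO and mTOR genes 2 of 20 higher, axon guidance genes 3 of 25 higher and glucocorticoid-induced genes 3 of 13 higher. Kainate and metabotropic receptors counted 2 of 12, neurotrophin and neuregulin genes 2 of 9, phosphodiesterases 2 of 15 and monoamine and stress receptors 3 of 18, all higher, and synaptic adhesion genes 2 higher and 2 lower of 27. With depth per nucleus as a covariate the counts were 7 channel genes higher and 11 oxidative phosphorylation genes lower, beside 669 higher and 907 lower over all genes. Without old ad libitum mouse 1 they were 11 and 13, beside 1226 and 1092 over all genes, and without young mouse 2 they were 8 and 8, beside 699 and 690.

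Other list counts moved more. Without young mouse 2, the higher members numbered 2 of 20 insulin, FoxO and mTOR genes, 3 of 25 axon guidance genes, 0 of 10 AMPA and NMDA receptor subunits, 1 of 27 synaptic adhesion genes and 2 of 12 kainate and metabotropic receptors. With the depth covariate they numbered 3 insulin, FoxO and mTOR genes, 3 axon guidance genes (with 2 lower) and 1 of 9 neurotrophin and neuregulin genes. The glucocorticoid-induced genes had no stable balance, with 2 higher and 3 lower with the depth covariate, 3 and 3 without old ad libitum mouse 1, and 2 and 1 without young mouse 2. Heat shock chaperones counted 5 lower with the depth covariate, 6 without old ad libitum mouse 1 and 4 without young mouse 2.

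Oligodendrocyte markers in ventral-type sums were at 86.0 to 137 CPM in young and 141 to 174 CPM in old ad libitum mice, and the groups did not overlap. Markers of oligodendrocyte precursors were at 3.40 to 12 CPM in young and 10.4 to 15.0 CPM in old mice, and 2 of 3 measured members had an unadjusted p below 0.05 with a higher level (the list's median log2 fold change was 1.04). The count of such precursor markers was 0 with the depth covariate and 1 without young mouse 2. Over all genes 7.63% were higher at that p in the main fit. Microglial markers were at 35.2 to 185 CPM in young, with the maximum in young mouse 2, and at 31.0 to 42.2 CPM in old ad libitum mice; the list's median log2 fold change was -0.83, and -0.08 without young mouse 2. The 4 ventral axis transcripts outside the rule (Nr2f2, Htr2c, Grp and Etv1) had a median of -0.61, with 3 of 4 lower in old mice and 1, Etv1, at an unadjusted p below 0.05. With the depth covariate, and without old ad libitum mouse 1, 0 of them had such a p. The 4 dorsal axis transcripts had a median of -0.39, also with 3 of 4 lower, and Gpr161 higher at an unadjusted p below 0.05. All 4 measured subicular markers were lower (median -0.61, and -1.96 without old ad libitum mouse 1), as were 4 of 5 granule neuron markers (median -0.54) and both measured fibroblast markers (median -1.57). The granule median was -0.30 without young mouse 2, -0.72 without old ad libitum mouse 1 and -0.13 with the length trend removed. Over all genes the median was -0.03, and 7787 of 14608 genes were lower. The part of any of these lists in the ageing values, those of Grik4 and other genes graded along CA1 included, was not tested. The transcripts that chose the nuclei are given as a description only, since the rule used their values. Dcn was at 7.46, 6.14 and 5.61 log2 CPM in young, 5.22, 5.83 and 5.96 in old ad libitum, 5.59, 2.46 and 6.23 in acutely restricted and 6.19, 6.65, 6.41 and 6.87 in long-term restricted mice. Acute restriction mouse 2 was the lowest of the 13. Pde11a was at 8.22, 7.74 and 7.78 in young and 7.40, 8.67 and 8.85 in old ad libitum mice, with the lowest value in old mouse 1.

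Dietary restriction gave fewer small p-values than ageing. The 3 comparisons share mice, since both restricted groups were set against the same 3 old ad libitum mice and then against each other. Long-term restriction gave 0 calls (0%) and 572 unadjusted p-values below 0.05 (3.92%), acute restriction 0 calls (0%) and 427 (2.92%), and long-term minus acute restriction 0 calls (0%) and 390 (2.67%), and DESeq2 called 0 genes in each. Those p-values divided into 286 higher (1.96%) and 286 lower (1.96%) for long-term restriction, 173 higher (1.18%) and 254 lower (1.74%) for acute restriction, and 253 higher (1.73%) and 137 lower (0.938%) between the restrictions. Without the libraries numbered 1, edgeR called 1 gene (0.00687%) for acute restriction. No list fixed for this work had more than 3 members below 0.05 in a direction in these comparisons. The genes below are those of smallest p and did not pass the test.

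Under long-term restriction, Plch2 was at 5.56, 5.94 and 5.76 in old ad libitum and 5.37, 5.14, 5.20 and 5.32 in restricted mice (-0.50 ± 0.13, edgeR adjusted p = 1). Lipe, the hormone-sensitive lipase, was at 4.24, 4.17 and 4.01 against 4.65, 5.13, 4.94 and 4.83 (0.76 ± 0.19, edgeR adjusted p = 1). Both had groups without overlap, as had 516 genes higher (3.53%) and 496 lower (3.4%). The other genes of this order were Ubap1l (0.97 ± 0.19), Gm15478 (0.55 ± 0.11), Mettl7a1 (0.55 ± 0.12), L3mbtl3 (0.73 ± 0.17), Impg2 (0.86 ± 0.21), Fam71d (1.24 ± 0.30), Ajm1 (-0.74 ± 0.16) and B4galnt4 (-0.53 ± 0.13).

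Under acute restriction, Ciart, a repressor within the circadian clock, was at 2.79, 2.66 and 2.71 in old ad libitum and 3.71, 3.52 and 3.41 in restricted mice (0.87 ± 0.18, edgeR adjusted p = 1). Calb1, a calcium buffer, was at 4.82, 5.24 and 4.94 against 5.61, 5.68 and 5.43 (0.57 ± 0.14, edgeR adjusted p = 1). In both genes the groups did not overlap, as in 586 genes higher (4.01%) and 740 lower (5.07%). The vomeronasal receptor genes Vmn2r85 (-1.04 ± 0.20, edgeR adjusted p = 0.798), Vmn2r84 (-1.54 ± 0.33) and Vmn2r86 (-1.13 ± 0.26) had lower values, and as close relatives whose reads may be split between copies they are uncertain. Smpd4 (-0.64 ± 0.13), Sec1 (-1.39 ± 0.28), Rsrp1 (-0.85 ± 0.20), 4930598N05Rik (-1.74 ± 0.42) and Mtif2 (0.42 ± 0.10) completed the order.

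Between the restrictions, Fkbp5, a glucocorticoid-induced regulator of the glucocorticoid receptor, was at 6.09, 6.33 and 6.21 under acute and 5.98, 5.83, 5.74 and 5.60 under long-term restriction (-0.42 ± 0.10, edgeR adjusted p = 1). Old ad libitum mice had 5.97 to 6.0, and young mice 5.54 to 5.68. Sh2d4b (1.45 ± 0.27), Umps (0.98 ± 0.24), Impg2 (0.86 ± 0.21), Gm34667 (1.16 ± 0.28), Gm40437 (0.71 ± 0.18), Gm9989 (1.13 ± 0.28) and 5031425E22Rik (0.41 ± 0.10) were higher under long-term restriction, and Vmn2r85 and Vmn2r86 by 0.85 ± 0.20 and 1.17 ± 0.25. None passed the test. Groups without overlap were found in 350 genes higher (2.4%) and 219 lower (1.5%).

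Whether ventral-type and dorsal-type neurons differed in their response was tested as an interaction, with each mouse as a block. For ageing, 4 of 13942 genes (0.0287%) passed, and 797 had an unadjusted p below 0.05. In each the difference between old and young mice was lower in ventral-type than in dorsal-type nuclei. For long-term restriction, acute restriction and long-term minus acute restriction, 0 genes passed (0%), with 557, 457 and 458 unadjusted p-values below 0.05. In the ventral-type fit alone their edgeR adjusted p for ageing was 0.764 or more.

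Astn2 (chromosome 4, 65380803 to 66404611), which regulates the surface level of neuronal adhesion and receptor proteins, was at 8.34, 8.51 and 8.58 log2 CPM in ventral-type sums of young mice, against 8.78, 8.17 and 8.16 with age. In dorsal-type sums it was at 9.03, 8.85 and 9.42 in young and 10.02, 9.90 and 9.54 in old mice. The ventral values overlapped and the dorsal values did not. The mean difference was -0.10 in ventral-type and 0.72 in dorsal-type sums, and the interaction was -0.80 ± 0.12 (SE, edgeR adjusted p = 0.00387).

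Tox (chromosome 4, 6686353 to 6991557), an HMG-box transcription factor, was at 7.24, 6.76 and 7.12 in ventral-type sums of young and 7.26, 7.08 and 6.94 in those of old mice. In dorsal-type sums it was at 6.32, 5.68 and 6.31 in young and 8.18, 7.71 and 6.95 in old mice, again without overlap. The interaction was -1.46 ± 0.20 (edgeR adjusted p = 0.00543). The ventral level exceeded the dorsal level in each young mouse. The dorsal level was the higher in old mice 1 and 2, and in old mouse 4 the levels were nearly equal.

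Rgs20 (chromosome 1, 4909576 to 5070285), a regulator of inhibitory G proteins, was at 4.61, 4.27 and 4.67 against 5.32, 3.82 and 3.89 in ventral-type sums and at 4.00, 3.78 and 4.41 against 6.10, 5.25 and 4.15 in dorsal-type sums (interaction -1.41 ± 0.23, edgeR adjusted p = 0.00542). Cdh20 (chromosome 1, 104768529 to 104995481), a cadherin, was at 6.92, 6.33 and 6.50 against 7.05, 5.79 and 5.63 in ventral-type sums and at 6.04, 4.5 and 5.05 against 6.92, 5.90 and 5.83 in dorsal-type sums (interaction -1.23 ± 0.21, edgeR adjusted p = 0.0418). For both genes the dorsal-type values of old and young mice overlapped. Among the 3 old ad libitum mice, mouse 1 had the highest level of these genes in both types. The dorsal sums were small, with 6 UMIs of Rgs20 and 10 of Cdh20 in young mouse 2.

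The 4 calls rested on few libraries. Without old ad libitum mouse 2 there were 0 calls and without young mouse 2 there were 2. There were 13 without old ad libitum mouse 1, 15 without old ad libitum mouse 4, 8 without acute restriction mouse 2 and 10 without acute restriction mouse 3. With a margin of 3 UMIs for both types, which also left out young mouse 2 and long-term restriction mouse 4, there were 0 calls. The direction held in each of these fits, with the interaction between -0.95 and -0.66 for Astn2 and between -1.70 and -1.09 for Tox. Subicular markers in dorsal-type sums were at 42.9 to 62.0 CPM in young and 22.7 to 124 CPM in old ad libitum mice, and their part in these interactions was not tested.

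**Figure D5:**
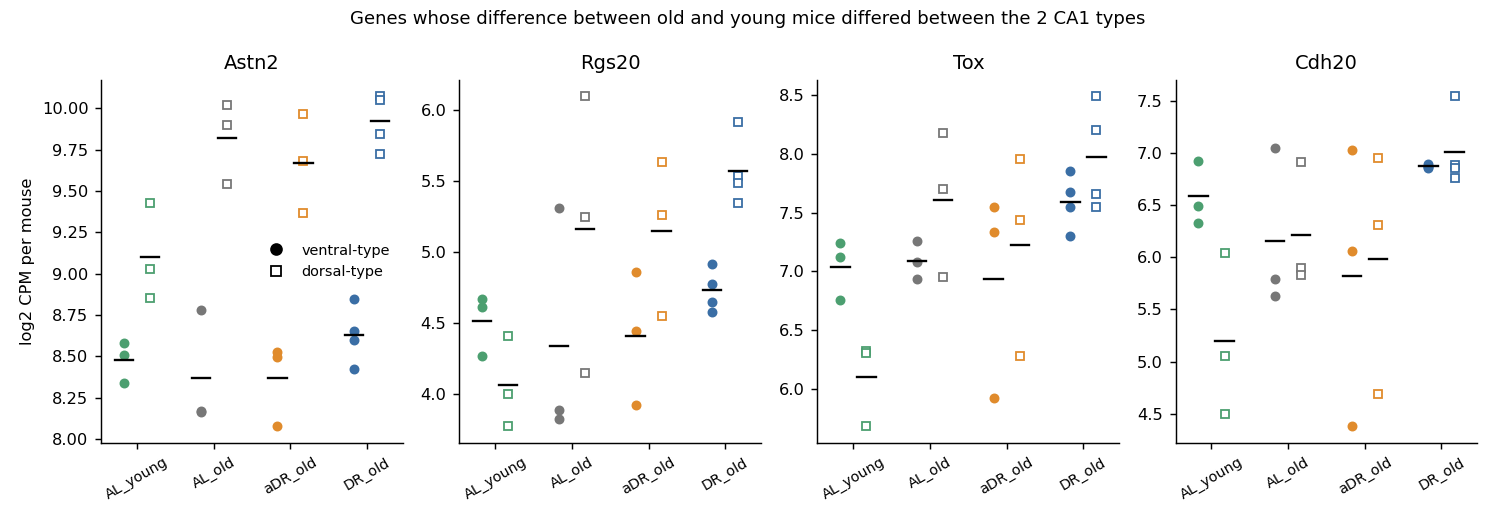
Level in log2 CPM of Astn2, Rgs20, Tox and Cdh20 in ventral-type (filled circles) and dorsal-type sums (open squares) by group, with 1 point per mouse and a bar at the group mean; each panel has its own vertical axis, which does not start at 0. For Tox the dorsal-type points lie at 5.68 to 6.32 in young and 6.95 to 8.18 in old ad libitum mice, and the ventral-type points of both lie between 6.76 and 7.26.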

How the data were processed

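Nuclei were sorted by Hoechst stain and libraries made with 10x Genomics 3' chemistry, per the labels' protocols. The deposited values are UMI counts per gene and barcode, made with Cell Ranger 4.0.0 on mm10 per the submitters' processing notes. The annotation, counting of introns, use of strand and any removal of doublets or free RNA by the authors are not given in the sources used here. Coordinates and gene spans came from GENCODE M21 (mm10), which matched 32158 of 32285 gene identifiers. Of 225 named genes, 92 overlap another annotated gene, and their counts are uncertain for that reason.

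Of 105759 barcodes, 105427 were retained. Libraries held 38546292 to 80538090 UMIs. Counts were summed per mouse for ventral-type, dorsal-type and all other nuclei. Condition tests used edgeR 4.0.16 (R 4.3.3; quasi-likelihood, robust, TMM, its default filter for low counts, group as the only term, all 13 mice) and Benjamini-Hochberg adjustment over all genes tested. The interaction used both sums of a mouse with the mouse as a block. Shares and depths were compared by exact permutation tests that enumerated every assignment of mice to groups, and Wilson intervals came from scipy 1.17.1. Levels are log2 CPM with a prior count of 2, scaled by TMM for conditions and by totals between the types. Alternatives were DESeq2 1.42.0, other scaling, filters, covariates, membership margins, doublets left out (scanpy 1.11.5 for Scrublet), and leaving out mice. The scripts were tested on simulated data. The members and gene lists were chosen with earlier results of these data known. Named were all calls and, where a comparison had fewer than 10, the genes of smallest unadjusted p up to 10; up to 4 members of each list by smallest p in the ageing comparison, since no comparison had calls; every interaction call; and the 25 highest and 15 lowest differences between the types. Results for some list members are not reported here.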

Additional observations from a re-analysis of the deposited data

Results flagged for a closer look

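The difference between old and young ad libitum mice differed between ventral-type and dorsal-type nuclei for 4 genes by the interaction test itself. The ventral minus dorsal difference in log2 fold change was -0.80 for Astn2 (edgeR adjusted p = 0.00387), -1.41 for Rgs20 (0.00542), -1.46 for Tox (0.00543) and -1.23 for Cdh20 (0.0418). In dorsal-type sums the mean of the old mice was above that of the young mice by 0.72, 1.10, 1.51 and 1.02 in that order. The dorsal-type values of old and young mice overlapped for Rgs20 and Cdh20. In ventral-type sums the means differed by -0.10, -0.17, 0.05 and -0.43. There were 0 calls without old ad libitum mouse 2, and 0 with a margin of 3 UMIs for membership, a fit that also left out young mouse 2 and long-term restriction mouse 4. In the long-term restriction group, the only one with 4 mice, 38 sets of values were examined for a mouse far from the others, and 0 held one. The groups of 3 mice were not examined in this way.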

How the results depend on the processing

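For ageing in ventral-type nuclei the main count of 0 became 145 with a term for number 1, 211 with DESeq2, 574 without the 4 libraries numbered 1 (an alternative chosen after seeing the data) and 2 without a filter on low counts. Removing the length trend, a depth covariate, other size factors, only 2 groups, doublets left out, a margin of 3 UMIs and membership without Dcn gave 0. Acute restriction gave 1 without the libraries numbered 1. The cause of these moves was not tested. The replicate block (title numbers as a factor) gave 0 calls in all 4 comparisons; same-numbered mice deviated together in 10 of 16 pairs (r above 0.1, range -0.15 to 0.70), 6 of them among libraries numbered 1, so the numbers were not taken to pair mice. Leaving out 1 mouse at a time gave 0 to 0 calls in the 4 ventral-type comparisons. For the interaction it gave 0 to 15 calls for ageing, 0 to 0 for long-term restriction, 0 to 1 for acute and 0 to 1 for long-term minus acute. Without a filter the interaction counts were 87, 10, 4 and 4, and a margin of 3 UMIs, with 11 of the 13 mice, gave 0 for ageing. Of 68 refits of the 4 interaction genes, 19 lost the call and 0 changed sign. Of 3115 refits of 125 named condition values, 0 changed sign and 91 passed the threshold. Both sets were chosen mostly by p-values of the main fits, so their counts of sign changes are no test.

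The share difference for acute restriction turned to -0.063 after thinning to 3000 UMIs, to -0.24 without old ad libitum mouse 1 and to -0.45 without the libraries numbered 1, and the depth difference for long-term restriction to 0.089 without them and to 0.092 without old ad libitum mouse 1. With 1 mouse left out, share differences ranged from 0.33 to 1.24 for ageing, 0.52 to 1.37 for long-term, -0.24 to 0.62 for acute and 0.34 to 1.16 for long-term minus acute restriction. Depth differences ranged from 0.36 to 0.86, -0.40 to 0.09, -0.63 to -0.13 and 0.16 to 0.29. Of 80 refits of the 40 ventral minus dorsal genes, 0 changed sign and 17 moved by more than 1 SD. The 40 genes were chosen for large differences of the same sign in every mouse, and the refits reused the same rule and mice. The count of sign changes is therefore no test. Small dorsal sums and 3 or 4 mice per group limit the precision.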

Other observations

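Acute restriction mouse 2 differed from the other mice of its group in Dcn, Tox and Cdh20, the last 2 in both CA1 types. Its share of ventral-type nuclei with Dcn was 3.90%, against 23.1% and 38.2% in the other acute restriction mice. In its ventral-type sum Tox was at 5.92 log2 CPM against 7.55 and 7.33, and Cdh20 at 4.38 against 6.06 and 7.03. In its dorsal-type sum Tox was at 6.28 against 7.96 and 7.44, and Cdh20 at 4.68 against 6.32 and 6.95. Its subicular markers summed to 3.58 CPM in ventral-type nuclei, the lowest of all 13 mice. It was chosen for description after its values were seen.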
